A study of Homo sapiens with 9 samples.

Results

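Batch 2 of this series comprised 3 of its 9 RNA-seq libraries, 1 from each genotype of the cell line Z138, and was set against the 6 libraries of batches 1 and 3. Membership was taken from the batch label, which equals the replicate number. Which batch to set apart was chosen with earlier results of these data known. Z138 is an established human mantle cell lymphoma line, a malignant B-cell line that carries high cyclin D1 and the neural transcription factor SOX11. The 3 genotypes were the unedited line (WT), the line with SOX11 knocked out (SOX11KO), and the knockout with SOX11 put back (SOX11KO+SOX11Rescue), called wild type, knockout and rescue below. All were grown at 37 °C in RPMI-1640 with 10% fetal bovine serum, and the labels give no treatment or time. They do not say what separated the batches, whether replicates were separate cultures, whether an edited line is 1 clone, or how SOX11 was removed and returned. The study's own contrast is between genotypes. The question here is which genes and pathways differed between batch 2 and the other batches in all 3 genotypes alike. With a single batch 2, a p-value measures how even that difference was over 3 genotypes, and not whether another batch would differ in the same way. The spread it is set against also holds the difference between batches 1 and 3.

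Several pathways can move between cultures of 1 line. Immediate early genes such as EGR1 and FOS are switched on within minutes by serum or antigen receptor signals through the MAP kinases and serum response factor, and their RNAs decay quickly. The heat shock factor HSF1 drives chaperones of the HSP70, HSP40 and HSP90 systems when unfolded protein builds up in the cytosol, through repeats of short GAA and TTC blocks in their promoters, whereas the cold-inducible RNA-binding proteins CIRBP and RBM3 rise when cells cool. The replication genes driven by E2F peak around the start of S phase and the mitotic genes in G2.

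SOX11 (chr2:5692667-5701385, plus strand, GRCh38, as all gene positions here, from GENCODE) was read first as a check of the genotype labels. Its normalized counts, which are read counts scaled to library size, were 3800, 3845 and 3003 in the wild-type libraries of batches 1, 2 and 3. In the knockout they were 901, 1335 and 862, and in the rescue 12818, 13849 and 12715. The genotypes did not overlap, and the knockout still gave SOX11 counts. Within each genotype batch 2 held the highest SOX11 count, but the difference of 0.22 (SE 0.065) on the deposited log2 scale did not pass the test at an adjusted p of 0.061. A two-sided exact permutation test within genotypes gave p = 0.037, the smallest value its 27 rearrangements allow. It picks the library freely in each genotype, so it ignores the pairing of libraries by batch, and its p can be too small. Without the wild-type batch 1 library the adjusted p was 0.0183, and with batch as 3 levels (the replicate block) it was 0.044.

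The libraries held an estimated 30800000 to 40700000 reads each, and depth did not separate batch 2 from the rest (exact permutation test within genotypes, p = 0.93). Mitochondrial transcripts took 1.84% to 2.25% of counts in batch 2 and 1.51% to 2.82% in the others (exact permutation p = 0.85). Ribosomal protein and histone shares did not pass that test either (exact permutation p = 0.48 and 0.63). All these permutations ignore the pairing of libraries by batch. B-cell identity was plain in every library: CCND1 ranged from 106410 to 136858 counts, MS4A1 from 18541 to 23423 and CD79A from 7807 to 9776. Markers of other cell types were partly present. CD3D, CD8B, GNLY and CD14 stayed at or below 5.02 counts, but CD247 had 659 to 898, CD3G 293 to 556 and CD3E 36 to 93.1. The T-cell and NK-cell list summed to 1139 to 1396 counts in batch 2 and 1273 to 1634 in the others. COL1A1 had 704 to 1276 counts and PECAM1 150 to 534, while COL1A2 stayed at or below 5.23, and the fibroblast and endothelial list summed to 899 to 1669 in batch 2 and 884 to 1644 in the others. Their part in the results was not tested. Of 6 T-cell and NK-cell markers tested, only TRAC, the T-cell receptor alpha constant gene, was called, at 10.5 to 94.6 counts in batch 2 and 0 to 35.9 in the others (adjusted p = 0.0080). TRAC lost the call when the wild-type batch 2 library was left out (adjusted p 0.0671). The labels name 2 library kits and both paired and single ends without saying which library had which, so a change of kit or layout between batches cannot be told apart from batch itself.

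Batch 2 stood apart in all 3 genotypes. After the genotype means were removed, the leading principal component carried 43.8% of what variance was left. It placed the batch 2 libraries at 10.6 (wild type), 6.30 (knockout) and 6.73 (rescue), and the other 6 libraries between -5.98 and -2.00. The second component, with 16.6%, put batch 1 below 0 and batch 3 above it in every genotype.

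**Figure D1:**
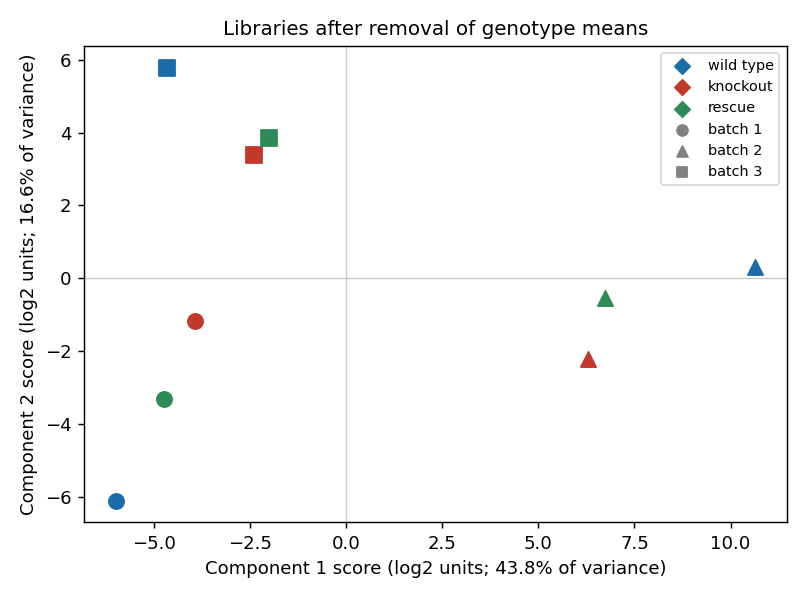
Scores of the 9 libraries on the first 2 principal components of the deposited log2 values after subtraction of each genotype's mean; colour gives genotype and shape gives batch. The 3 batch 2 libraries sit between 6.30 and 10.6 on the horizontal axis, and the other 6 at or below -2.00.

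Of 11542 genes tested, 995 (8.62%) passed an adjusted p of 0.05 between batch 2 and the other batches in a fit with genotype as a block. They divided into 496 higher (4.3%) and 499 lower (4.32%) in batch 2, around a median difference of 0.00 over all genes. On log2(CPM + 1) in place of the deposited scale the split was 388 higher and 645 lower. For comparison, batches 1 and 3 differed from each other in 2 genes (0.0173%), CEMP1 and PEG10, with 1175 at an unadjusted p under 0.05. Batch 2 differed from batch 1 in 870 genes (7.54%) and from batch 3 in 639 (5.54%), 2 comparisons that share the batch 2 libraries. Leaving out 1 library moved the first to between 191 (without wild-type batch 1) and 887 and the second to between 83 (without wild-type batch 3) and 494. Most differences were modest: among called genes, 239 rises and 275 falls reached 1.25-fold, and 71 rises and 62 falls reached 1.5-fold. A fold here is the geometric mean over the 3 genotypes of the batch 2 count divided by the mean of the other 2 counts of that genotype. The count rested on each batch 2 library: it was 195 without that of wild type, 390 without that of the knockout and 378 without that of the rescue. It was 579 without the knockout batch 1 library.

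The difference was shared between genotypes. The batch 2 library lay outside both other libraries of its genotype, in the same direction in all 3, for 3018 genes (26.1%), of which 1508 (13.1%) were above and 1510 (13.1%) below. Among the called genes 979 of 995 did so, a share that their selection raises. When each genotype was left out of the fit in turn, the genes called from the other 2 could be read in libraries that had not chosen them. Of 273 genes called without wild type, 247 (90.5%) lay outside both other wild-type libraries in the same direction, against 52.9% of all genes. The knockout gave 239 of 264 (90.5%, against 52.6%) and the rescue 242 of 265 (91.3%, against 51.2%). The median rise of the called genes was 1.27-fold in wild type, 1.25-fold in the knockout and 1.23-fold in the rescue, and the median fall was 1.32-fold, 1.23-fold and 1.22-fold. No gene (0%) passed the test of a batch 2 difference that itself differed by genotype, and 617 had an unadjusted p under 0.05. With 3 residual degrees of freedom and a single batch 2 library per genotype, that test can miss large differences. Its lack of calls therefore does not show that the genotypes were alike. The smallest adjusted p in that test was 0.13, for EIF4EP2. For 691 of the 995 called genes the batch difference exceeded the range between genotype means, but these genes were chosen for their batch difference. Over all tested genes genotype held a median of 43.3% of a gene's sum of squares, and batch 2 held 10.5%. Genotype takes more terms in the fit than batch 2, and each term takes up some share by chance. The 2 shares are therefore not like for like.

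Chaperones of the heat shock response fell as a group. Of 22 tested members of a list of 24, 13 were lower in batch 2 and 0 higher, beside 4.32% of all genes lower, and 15 lay below both other libraries in all 3 genotypes, beside 13.1% of all genes. The list's median difference was -0.25 on the log2 scale. CHORDC1 (chr11:90201160-90223364, minus strand), a cofactor of HSP90, had counts of 1472, 654 and 1423 for wild type (batches 1, 2 and 3), 1478, 749 and 1467 in the knockout, and 1419, 848 and 1346 in the rescue. All batch 2 counts were at or below 848 and the others at or above 1346. CHORDC1 was 1.92-fold lower (log2 difference -0.59, SE 0.049, adjusted p = 0.00051). Its neighbour in rank, HSPH1 (chr13:31134974-31162388, minus strand), encodes an exchange factor of HSP70 and gave 28228, 13366 and 23451 for wild type, 26724, 14171 and 23546 in the knockout, and 27152, 15721 and 21788 in the rescue. It was 1.75-fold lower (-0.77, SE 0.083, adjusted p = 0.0012), again with no overlap.

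Members of the HSP70, HSP40 and HSP90 systems were among the falls. HSPA8, the constitutive HSP70 of the cytosol, had 58823 to 62151 counts in batch 2 and 76392 to 93403 in the others (1.41-fold lower, adjusted p = 0.0012). DNAJB1, an HSP40 that hands clients to HSP70, had 3347 to 3979 against 4470 to 5171 (1.31-fold lower, adjusted p = 0.0014). The remaining called members were AHSA1, BAG3, DNAJA1, DNAJB6, FKBP4, HSP90AA1, HSPA4L, SERPINH1 and STIP1, named as the rest of the list's calls after their values were seen, at 1.18-fold (DNAJB6) to 1.64-fold (SERPINH1) lower. SERPINH1 is the collagen chaperone of the endoplasmic reticulum and is also driven by HSF1. HSP90AA1, the inducible cytosolic HSP90, was 1.23-fold lower (adjusted p = 0.011). HSP90AB1, its constitutive partner, was level, with 106209 to 114001 counts in batch 2 and 106764 to 115300 in the others (adjusted p = 0.83). The mitochondrial chaperones HSPD1 (-0.18, adjusted p = 0.056) and HSPE1 (-0.11, adjusted p = 0.10) did not pass, nor did HSF1 itself (0.03, adjusted p = 0.73). The inducible HSPA1A and HSPA1B were not tested here.

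The whole list took 1.16% to 1.21% of counts in batch 2 and 1.32% to 1.49% in the other libraries. Of the chaperones, CHORDC1, HSPH1, HSPA8, DNAJB1 and FKBP4 kept their call in every setting tried. The other calls were less stable. Leaving out the wild-type batch 2 library reduced the list's 13 falls to 5, and leaving out that of the knockout or the rescue reduced them to 10 or 9. HSP90AA1, AHSA1 and STIP1 lost their calls when the wild-type or the rescue batch 2 library was left out (adjusted p 0.0587 to 0.0721, 0.0553 to 0.0977 and 0.0534 to 0.0581, in that order). BAG3 and HSPA4L did not pass when the wild-type or the knockout batch 2 library was left out (0.0703 to 0.0936 and 0.0831 to 0.103, in that order). DNAJA1 and SERPINH1 lost their calls when the wild-type batch 2 library was left out (adjusted p 0.0644 and 0.0746, in that order). DNAJB6 did not pass when any 1 batch 2 library, any 1 batch 1 library or the wild-type batch 3 library was left out (0.0502 to 0.192). HSPD1 passed without the knockout batch 3 library (0.046) and with batch as 3 levels (0.016).

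The cold-inducible pair moved the other way. CIRBP, chosen with RBM3 after their values were seen, had 7480, 7971 and 8317 counts in the wild-type, knockout and rescue libraries of batch 2 and 4903 to 6650 in the others. It was 1.36-fold higher (0.40, SE 0.059, adjusted p = 0.0045). RBM3 had 15329 to 16433 against 12331 to 14581 and was 1.19-fold higher (adjusted p = 0.022). Neither gene's batch 2 range overlapped the range of the other libraries. RBM3 lost the call when the wild-type or the knockout batch 2 library was left out (adjusted p 0.114 to 0.122).

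**Figure D2:**
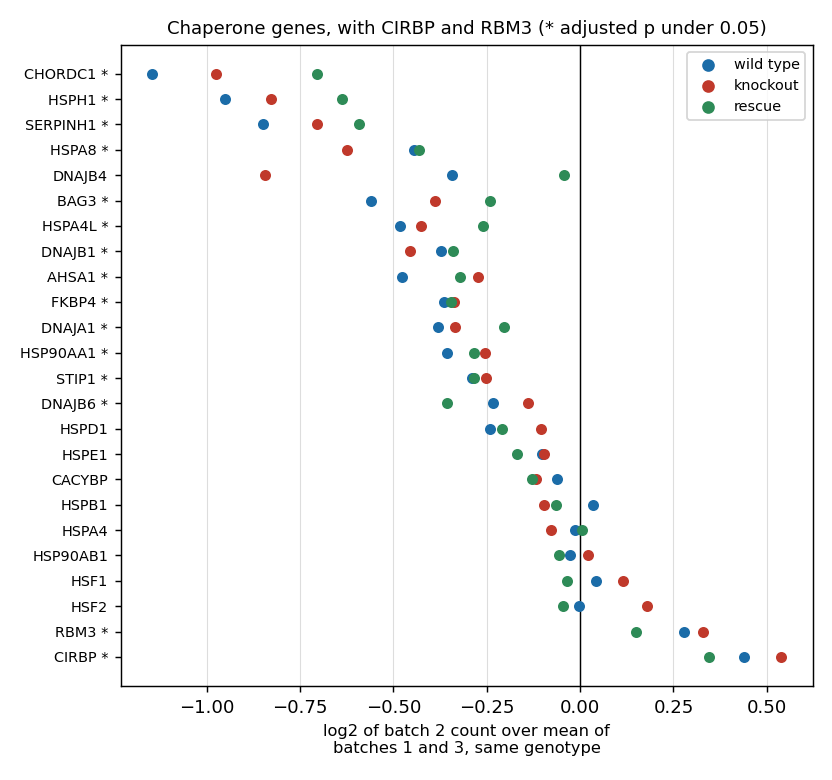
Log2 of the batch 2 count over the mean count of batches 1 and 3 of the same genotype, for the 22 tested chaperone-list genes with CIRBP and RBM3; points are the 3 genotypes and an asterisk marks an adjusted p under 0.05. The 13 marked chaperones lie left of 0 in all 3 genotypes, and CIRBP and RBM3 lie right of it.

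Promoter sequences were read because the chaperones moved together and share a known binding sequence. The heat shock element was searched as GAANNTTCNNGAA or TTCNNGAANNTTC, on both strands, in windows from 250 bases before to 50 after the RefSeq start (GRCh38.p14). It was in 0.49% of all 35116 promoters of that table and in 0.483% of the 9116 tested genes with a promoter there. It was in 2.2% of genes lower in batch 2 (9 of 410) and in 0.484% of genes higher (2 of 413). Among 12 chaperone genes lower in batch 2 with a promoter there, 6 held it: CHORDC1, DNAJA1, DNAJB6, HSP90AA1, HSPA8 and SERPINH1. Among 8 list members not called, 2 did, HSP90AB1 and HSPD1. Over the whole list, called or not, the share was 40% (8 of 20). The 6 called chaperones are among the 9 lower genes with the element, so the 2.2% rests largely on this list. The 250 bases before the start of CHORDC1 (chr11:90223050-90223299, minus strand) and of HSPA8 (chr11:123062137-123062386, minus strand) are printed 5′ to 3′ with the matches in capitals, because these chaperones had the largest log2 falls among those that hold the element. By counts SERPINH1, which holds it too, fell more than HSPA8 (1.64-fold against 1.41-fold).
CHORDC1: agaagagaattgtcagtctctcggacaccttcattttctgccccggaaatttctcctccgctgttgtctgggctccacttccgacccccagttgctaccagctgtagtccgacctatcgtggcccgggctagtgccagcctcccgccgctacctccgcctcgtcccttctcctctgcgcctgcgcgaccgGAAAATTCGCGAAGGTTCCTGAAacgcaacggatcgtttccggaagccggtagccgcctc
HSPA8: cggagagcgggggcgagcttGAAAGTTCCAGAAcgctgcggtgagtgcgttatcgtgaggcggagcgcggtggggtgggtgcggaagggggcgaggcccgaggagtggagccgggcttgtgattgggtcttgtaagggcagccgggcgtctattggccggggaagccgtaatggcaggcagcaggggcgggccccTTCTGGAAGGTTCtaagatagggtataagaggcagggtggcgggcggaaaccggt
In CHORDC1, 3 overlapping matches begin 60, 55 and 50 bases before the start and run together. In HSPA8 the matches begin 230 and 55 bases before it. HSPH1 and DNAJB1, which also fell, had no match in their windows, and sites outside the windows were not searched.

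The immediate early genes split in 2 directions. Of 25 tested members of that list, 4 fell (EGR1, FOS, IER2 and DUSP2) and 5 rose (NR4A3, NR4A1, DUSP5, IER5 and KLF2), beside 4.32% and 4.3% of all genes, and the median difference was 0.07. EGR1 (chr5:138465490-138469315, plus strand), a zinc finger factor and the classic product of MAP kinase signalling, showed the largest fall. Its counts were 8076, 184 and 6474 for wild type (batches 1, 2 and 3), 871, 240 and 1212 in the knockout, and 5153, 366 and 2732 in the rescue. Batch 2 stayed at or below 366 in every genotype while the other libraries ranged from 871 to 8076. EGR1 was 12.3-fold lower (-2.21, SE 0.32, adjusted p = 0.0037). The fall was smaller in the knockout, where EGR1 was low in all batches, but the test of a difference between genotypes did not pass (unadjusted p = 0.00053, adjusted p = 0.34).

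FOS (chr14:75278774-75282230, plus strand), the partner of JUN in the AP-1 factor, followed the same pattern. It had 809, 92 and 728 counts for wild type, 174, 26 and 135 in the knockout, and 709, 86 and 445 in the rescue, and was 6.95-fold lower (-0.90, SE 0.107, adjusted p = 0.0018). IER2, a small nuclear protein induced with them, had 2027, 1840 and 1875 counts in batch 2 against 2246 to 4917, and was 1.79-fold lower (adjusted p = 0.0097). DUSP2, a nuclear phosphatase of MAP kinases, was 1.70-fold lower (adjusted p = 0.019). HBEGF, a ligand of the EGF receptor, was 1.43-fold lower (adjusted p = 0.016), and CD69, an early activation antigen of lymphocytes added after its values were seen, was 2.26-fold lower (adjusted p = 0.031). EGR1 and FOS kept their calls in every setting. IER2, DUSP2 and HBEGF lost their calls when the wild-type or the rescue batch 2 library was left out (adjusted p 0.0684 to 0.0817, 0.116 to 0.146 and 0.0943 to 0.132, in that order). CD69 did not pass when the wild-type or the rescue batch 2 library, the wild-type or the rescue batch 1 library or the wild-type batch 3 library was left out (0.0518 to 0.214).

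The genes that rose include induced receptors and feedback inhibitors. NR4A3 (chr9:99821855-99866891, plus strand), an orphan nuclear receptor induced by antigen receptor signals, went from 21 and 26 counts to 271 in wild type, from 12 and 9 to 58 in the knockout, and from 32 and 33 to 112 in the rescue. It was 6.08-fold higher (0.50, SE 0.077, adjusted p = 0.0050), and the log2 difference is compressed at such low counts. Its paralog NR4A1 was 1.52-fold higher (adjusted p = 0.0072). NAB2, a corepressor that binds EGR proteins and is itself an EGR1 target, had 6005, 2893 and 3331 counts in batch 2 against 1544 to 2672, and was 1.92-fold higher (adjusted p = 0.0083). NAB2 overlaps STAT6 at its end, so some reads may be shared. DUSP5, a phosphatase of nuclear ERK, was 1.97-fold higher (adjusted p = 0.0099). IER5 and KLF2, the remaining calls of the list, were 1.17-fold and 1.28-fold higher. IER5 lost the call when any 1 batch 2 library or the knockout or the rescue batch 1 library was left out (adjusted p 0.0556 to 0.158). KLF2 did not pass when any 1 batch 2 library, any 1 batch 1 library or the wild-type batch 3 library was left out (0.0547 to 0.203).

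GADD45B, a stress sensor upstream of p38, had 3328, 2870 and 2466 counts in batch 2 against 1316 to 1858, with no overlap, and was 1.75-fold higher (0.62, SE 0.066, adjusted p = 0.0012). RGS1, which damps chemokine receptor signals in B cells, had 1445, 446 and 1904 in batch 2. The other libraries held 314 and 412 for wild type, 315 and 183 in the knockout, and 544 and 671 in the rescue. RGS1 was 2.82-fold higher (0.85, SE 0.122, adjusted p = 0.0037), and the related RGS2, added after its values were seen, was 1.88-fold higher (adjusted p = 0.014). RGS2 was uneven, at 2.82-fold in wild type, 1.20-fold in the knockout and 1.95-fold in the rescue. For RGS2 the test of a difference between genotypes did not pass (unadjusted p = 0.00025, adjusted p = 0.30). JUNB (-0.02, adjusted p = 0.85), EGR2 (0.01, adjusted p = 0.93), EGR3 (-0.10, adjusted p = 0.46) and MYC (0.00, adjusted p = 0.97), looked up after the other values were seen, did not pass. GADD45B and RGS1 kept their calls in every setting, and NR4A3 kept its own in the 21 of 22 alternatives in which it was tested. Without the wild-type batch 2 library NAB2 (0.0599), NR4A1 (0.0596), DUSP5 (0.0797) and RGS2 (0.107) lost theirs, and RGS2 lost it also without that of the rescue (0.09). Without the wild-type batch 2 library the early list counted 1 rise and 2 falls, against 3 rises and 4 falls without that of the knockout and 3 and 2 without that of the rescue.

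**Figure D3:**
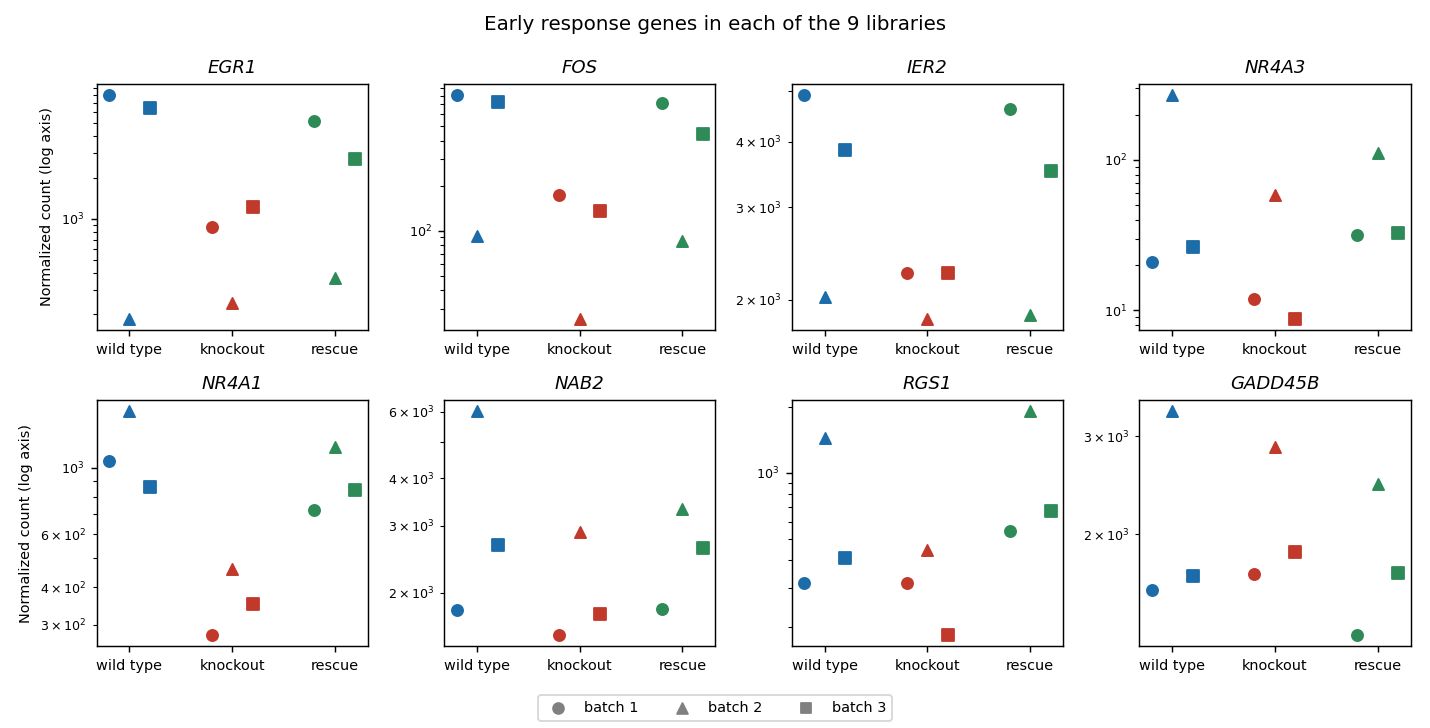
Normalized counts (log axis, scaled for each gene) of 8 early response genes in the 9 libraries; colour gives genotype and shape gives batch. In each genotype the batch 2 triangle is the lowest point for EGR1, FOS and IER2 and the highest for NR4A3, NR4A1, NAB2, RGS1 and GADD45B.

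The EGR1 promoter is shown because EGR1 fell most and its promoter is known for serum response elements. The CArG box, the core bound by serum response factor, was searched by its standard consensus on both strands. It was in 1.61% of tested genes with a promoter window and in 3 of 18 early genes, EGR1, EGR2 and SRF. It was in 1.46% of genes lower in batch 2 (6 of 410) and in 2.91% of genes higher (12 of 413). The 250 bases before the EGR1 start (chr5:138465229-138465478, plus strand, GRCh38.p14, RefSeq) are printed 5′ to 3′ with matches in capitals.
EGR1: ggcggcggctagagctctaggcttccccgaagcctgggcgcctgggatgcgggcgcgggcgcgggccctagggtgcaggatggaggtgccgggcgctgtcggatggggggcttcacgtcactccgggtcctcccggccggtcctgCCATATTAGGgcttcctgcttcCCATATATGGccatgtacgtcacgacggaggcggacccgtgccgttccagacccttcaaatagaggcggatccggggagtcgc
The 2 matches begin 105 and 83 bases before the start. EGR2, which holds a match in its window too, did not pass the test, and the FOS window held none. Sites more than 250 bases before a start were not searched, so FOS may hold a CArG box further upstream.

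Replication genes were slightly higher and mitotic genes slightly lower in batch 2. Of 39 tested genes of DNA replication and S phase 7 rose (CDC6, E2F8, MCM6, MCM7, FEN1, MCM3 and PCNA) and 0 fell, with a median difference of 0.06. Of 36 tested genes of G2 and mitosis 3 fell (HMMR, KIF20A and DLGAP5) and 0 rose, with a median of -0.08. Both counts stand beside 4.3% of all genes higher and 4.32% lower. Folds of the mitotic genes had a median log2 of -0.19 for the unedited line and -0.08 for the rescue, with -0.01 for the knockout, which showed almost none of the fall. The list's median difference was -0.04 without the wild-type batch 2 library and -0.12 on log2(CPM + 1). In all 3 genotypes, 15 replication genes lay above both other libraries and 10 mitotic genes lay below, beside 13.1% of all genes in each direction. CDC6, which loads the MCM helicase at origins, had 7817, 7299 and 6211 counts in batch 2 and 4628 to 6059 in the others, and was 1.29-fold higher (0.33, SE 0.047, adjusted p = 0.0037). E2F8, a late E2F repressor, had 2325 to 2626 against 1467 to 1991 and was 1.44-fold higher (adjusted p = 0.0060).

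The other replication calls were small. The helicase subunits MCM6, MCM7 and MCM3 were 1.16-fold, 1.14-fold and 1.10-fold higher, the flap nuclease FEN1 1.13-fold and the sliding clamp PCNA 1.10-fold. HMMR, a spindle-associated hyaluronan receptor, had 2669 counts in wild-type batch 2 against 3636 and 4244, 3868 in the knockout against 4471 and 4720, and 3725 in the rescue against 4167 and 4145. It was 1.25-fold lower (adjusted p = 0.022), the kinesin KIF20A 1.16-fold (adjusted p = 0.025) and the spindle protein DLGAP5 1.14-fold (adjusted p = 0.050). CCNB1 (-0.08, adjusted p = 0.22) and MKI67 (-0.08, adjusted p = 0.53), looked up after the other values were seen, did not pass. Replication-dependent histones, 0 of 29 called in limma and 2 lower at an unadjusted p under 0.05, had a median of -0.04 on the deposited scale. By counts, which are not compressed, their median log2 fold was -0.71 in the knockout, 0.13 in wild type and -0.03 in the rescue. In the knockout the whole list summed to 2189, 2070 and 3818 counts in batches 1, 2 and 3. There batch 2 lay near batch 1, and batch 3 was high. In bulk RNA, fewer cells in a phase and less RNA per cell cannot be told apart.

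CDC6 and E2F8 kept their calls in every setting. Leaving out any batch 2 library left only 2 replication calls. The mitotic calls numbered 0 without the wild-type batch 2 library, 2 without that of the knockout and 1 without that of the rescue. MCM6 lost the call when any 1 batch 2 library was left out (adjusted p 0.0815 to 0.11). MCM7 and FEN1 did not pass when any 1 batch 2 library or the knockout or the rescue batch 1 library was left out (0.0555 to 0.152 and 0.0693 to 0.192, in that order). MCM3 lost the call when any 1 batch 2 library, the knockout or the rescue batch 1 library or the knockout or the rescue batch 3 library was left out (adjusted p 0.06 to 0.15). PCNA did not pass when any 1 library but the wild-type of batch 1 was left out (0.0633 to 0.194). HMMR lost the call when the wild-type or the knockout batch 2 library was left out (adjusted p 0.064 to 0.148). KIF20A did not pass when the wild-type or the rescue batch 2 library or the knockout or the rescue batch 1 library was left out (0.0504 to 0.156). DLGAP5 lost the call when any 1 of the 9 libraries was left out (adjusted p 0.057 to 0.271).

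**Figure D4:**
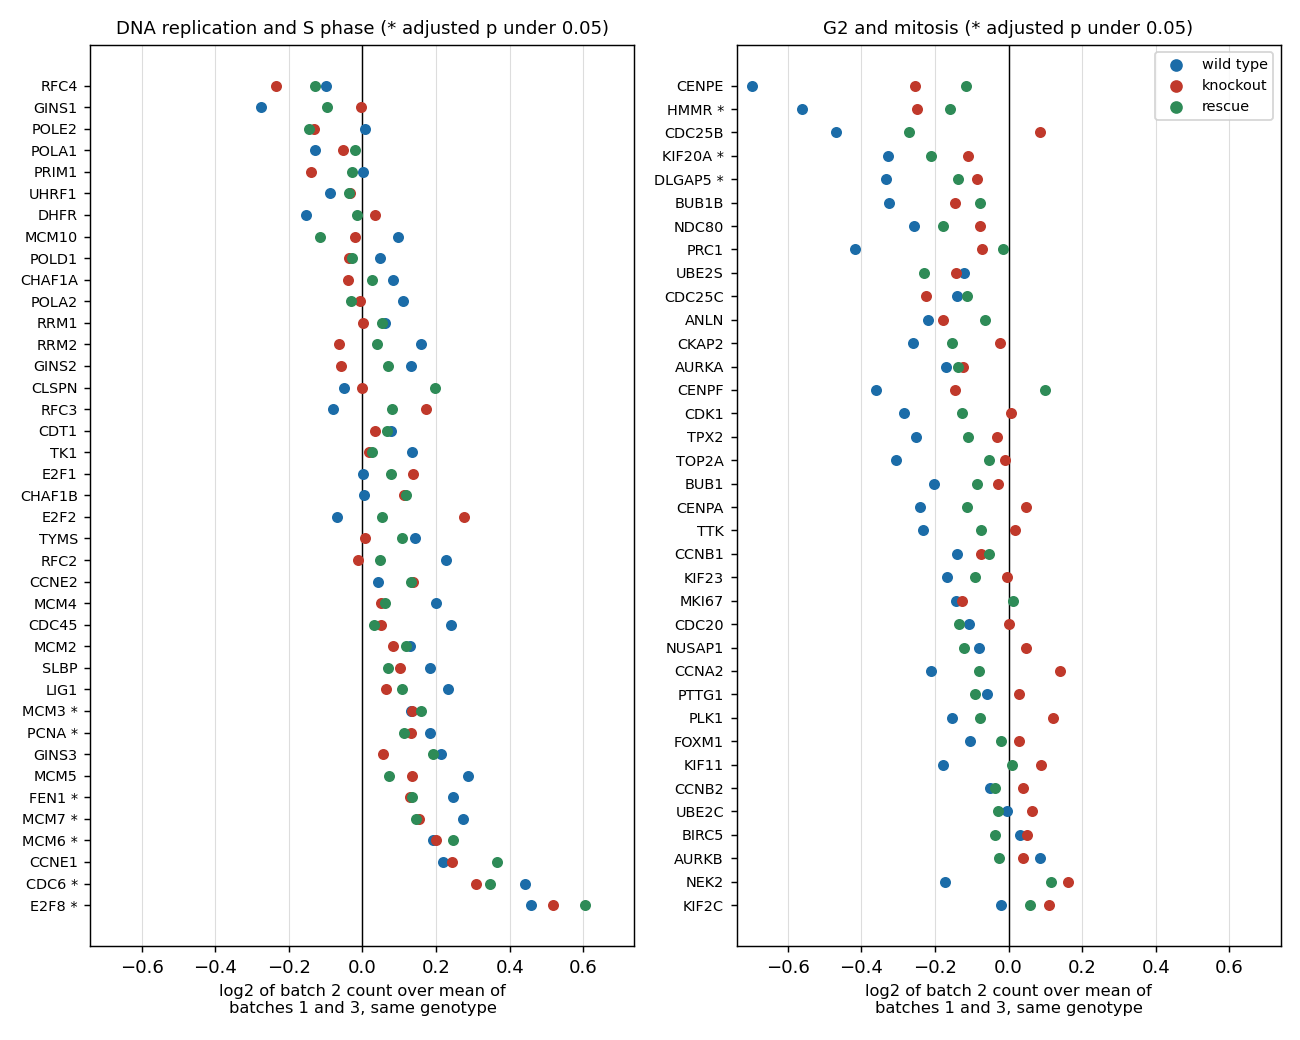
Log2 of the batch 2 count over the mean of batches 1 and 3 of the same genotype for the 39 replication genes (left) and 36 mitotic genes (right); points are the 3 genotypes and an asterisk marks an adjusted p under 0.05. Most replication points lie right of 0 and most mitotic points left, and the wild-type points reach furthest for HMMR and CENPE.

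Genes that report glucose supply and FOXO activity moved in both directions. TXNIP (chr1:145992435-145996600, minus strand), which restrains glucose uptake and is induced by glucose through MondoA, had 2475, 1018 and 1645 counts for wild type (batches 1, 2 and 3), 2454, 924 and 1635 in the knockout, and 2481, 1346 and 2222 in the rescue. It was 1.98-fold lower (-0.68, SE 0.104, adjusted p = 0.0048). ARRDC3, a related arrestin, had 1842 to 2321 counts in batch 2 against 2614 to 4431 and was 1.77-fold lower (adjusted p = 0.0030). Neither gene overlapped between batch 2 and the rest. ARRDC4, like TXNIP a target of MondoA and looked up afterwards, did not pass (0.05, adjusted p = 0.50) at 32 to 83 counts. Of 19 tested genes in that list, 2 fell (TXNIP and ARRDC3) and 3 rose, beside 4.32% and 4.3% of all genes. The rises were IRS2, the insulin receptor adaptor and a FOXO target (1.54-fold, adjusted p = 0.0021), FOXO1 itself (1.31-fold, adjusted p = 0.0080) and YPEL5. TXNIP, ARRDC3 and IRS2 kept their calls in every setting, and FOXO1 lost its own without the wild-type batch 2 library (0.0559), where the list's rises fell to 1. YPEL5 lost the call when the wild-type or the rescue batch 2 library, any 1 batch 1 library or the wild-type or the rescue batch 3 library was left out (adjusted p 0.0527 to 0.216).

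Central metabolism gave few calls, to be read beside 4.3% of all genes higher and 4.32% lower. In limma, 0 of 40 nuclear oxidative phosphorylation genes were called (3 higher and 1 lower at an unadjusted p under 0.05), 0 of 13 mitochondrially encoded genes (0 at that level), 0 of 24 cholesterol genes (4 higher and 2 lower), 0 of 26 genes of serine, one-carbon and nucleotide synthesis (4 and 2) and 0 of 11 iron genes (1 and 1). With batch as 3 levels the nucleotide list counted 1 rise and 1 fall and the cholesterol list 2 rises. The cholesterol genes' median log2 fold was 0.19 for the unedited line and 0.18 for the rescue but -0.07 for the knockout, which went the other way. Their median difference was 0.09, and 0.04, 0.14 and 0.05 without the wild-type, knockout and rescue batch 2 libraries. Of 24 genes 17 lay above 0, with HMGCS1 at 0.29 (adjusted p = 0.059) and CYP51A1 at 0.21 (adjusted p = 0.055). Both passed without the knockout batch 2 library (0.0362 and 0.0408) and without the rescue batch 3 library (0.0481 and 0.042), HMGCS1 passed also without the knockout batch 3 library (0.0456), and both passed with batch as 3 levels (0.028 and 0.047). Glycolysis had 1 of 24 called, the hexokinase HK2, 1.15-fold higher (adjusted p = 0.027). HK2 lost the call when any 1 batch 2 library, the knockout batch 1 library or the rescue batch 3 library was left out (adjusted p 0.0503 to 0.154). Of 21 hypoxia genes, 4 fell (P4HA1, EGLN1, ANKZF1 and MXI1) and 1 rose, beside 4.32% and 4.3% of all genes. The rise was the circadian repressor BHLHE40 at 1.74-fold (adjusted p = 0.0056). P4HA1, a collagen prolyl hydroxylase, was 1.31-fold lower (adjusted p = 0.013), and it and BHLHE40 lost their calls without the wild-type batch 2 library (0.0874 and 0.0527), where the list counted 0 falls. EGLN1 lost the call when any 1 batch 2 library, the rescue batch 1 library or the wild-type batch 3 library was left out (adjusted p 0.0504 to 0.148). ANKZF1 did not pass when any 1 batch 2 library, the knockout batch 1 library or any 1 batch 3 library was left out (0.0526 to 0.156). MXI1 lost the call when the wild-type or the rescue batch 2 library, any 1 batch 1 library or the wild-type or the rescue batch 3 library was left out (adjusted p 0.0664 to 0.25). SLC30A1, the zinc exporter driven by the metal sensor MTF1, had 960 to 1225 counts in batch 2 against 496 to 659 and was 1.86-fold higher (adjusted p = 0.00059) in every setting.

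In the endoplasmic reticulum stress branch the calls were all rises, and the amino acid stress branch gave few calls. Of 26 tested genes of the unfolded protein response 5 rose (HERPUD1, DNAJB9, EIF2AK3, CREB3L2 and HSPA5) and 0 fell, beside 4.3% and 4.32% of all genes. HERPUD1, a component of the degradation channel, had 4820, 4385 and 3616 counts in batch 2 against 2737 to 3621, and was 1.36-fold higher (0.38, SE 0.073, adjusted p = 0.012). DNAJB9, an HSP40 of the endoplasmic reticulum, was 1.41-fold higher (adjusted p = 0.0076), the sensor kinase EIF2AK3 (PERK) 1.29-fold (adjusted p = 0.0098), and HSPA5 (BiP), named as the last of the 5 calls, 1.13-fold (adjusted p = 0.043). HSPA5 and DNAJB9 are chaperones of the endoplasmic reticulum and were higher, whereas the called chaperones of the cytosol, and SERPINH1, were lower. Of 31 genes linked to ATF4, 3 rose (SLC7A1, DDIT3 and WARS1) and 1 fell (DDIT4), beside 4.3% and 4.32% of all genes. SLC7A1, the importer of cationic amino acids, was 1.30-fold higher (adjusted p = 0.0066). With batch as 3 levels this list counted 5 rises and 2 falls. Without the wild-type batch 2 library the unfolded protein list counted 0 rises, and without that of the knockout or the rescue 4 or 3. HERPUD1, DNAJB9, EIF2AK3 and SLC7A1 lost their calls when the wild-type batch 2 library was left out (adjusted p 0.0859, 0.0513, 0.0757 and 0.0555, in that order). CREB3L2 did not pass when the wild-type or the rescue batch 2 library was left out (0.0671 to 0.0722). HSPA5 lost the call when any 1 library but the rescue of batch 1 was left out (adjusted p 0.0543 to 0.188). DDIT3 did not pass when any 1 batch 2 library was left out (0.0819 to 0.108). DDIT4 lost the call when any 1 batch 2 library, any 1 batch 1 library or the rescue batch 3 library was left out (adjusted p 0.059 to 0.188). WARS1 did not pass when any 1 batch 2 library, the wild-type batch 1 library or the wild-type or the rescue batch 3 library was left out (0.0597 to 0.186).

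Growth genes differed by small amounts. Ribosomal proteins had 0 of 45 called in limma and 0 at an unadjusted p under 0.05, with a median of 0.06 and 43 of 45 differences above 0. By genotype the median log2 fold was 0.17 for the unedited line, 0.02 for the rescue and -0.02 for the knockout, so the shift was not shared by the genotypes. Translation factors had 0 of 21 called (1 higher and 1 lower at an unadjusted p under 0.05). Of 32 genes of MYC and ribosome biogenesis 4 rose and 0 fell, beside 4.3% and 4.32% of all genes. The rises were ODC1, the first enzyme of polyamine synthesis, at 1.19-fold (adjusted p = 0.013), and DKC1, PES1 and NCL at 1.14-fold, 1.13-fold and 1.12-fold. ODC1 lost its call without the wild-type batch 2 library (0.0868), where the list counted 0. DKC1 and PES1 lost their calls when any 1 library but the rescue of batch 1 was left out (adjusted p 0.0596 to 0.175 and 0.0615 to 0.2, in that order). NCL did not pass when any 1 of the 9 libraries was left out (0.0545 to 0.175).

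Splicing regulators moved in both directions. Of 32 tested, 6 fell (TRA2A, LUC7L, DDX17, U2AF1, SRSF10 and SRSF11), beside 4.32% of all genes, and 2 rose (SRSF2 and SRSF5), beside 4.3%. TRA2A, an activator of exon inclusion, had 3605, 3443 and 4183 counts in batch 2 against 4648 to 5583 and was 1.38-fold lower (-0.40, SE 0.040, adjusted p = 0.0011) in every setting. U2AF1, which reads the 3′ splice site, was 1.73-fold lower (adjusted p = 0.029), but a near-identical copy in the genome makes its counts uncertain. SRSF2 was 1.17-fold higher (adjusted p = 0.011). LUC7L, SRSF10 and SRSF5 lost their calls when any 1 batch 2 library was left out (adjusted p 0.0512 to 0.0671, 0.0523 to 0.0966 and 0.0687 to 0.107, in that order). DDX17 and SRSF2 did not pass when the wild-type or the knockout batch 2 library was left out (0.0626 to 0.105 and 0.0581 to 0.0776, in that order). U2AF1 lost the call when the wild-type or the rescue batch 2 library or the wild-type or the knockout batch 1 library was left out (adjusted p 0.0507 to 0.143). SRSF11 did not pass when the wild-type or the rescue batch 2 library, the wild-type or the rescue batch 1 library or the wild-type batch 3 library was left out (0.0551 to 0.162).

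Of 10 tested markers of B cells and mantle cell lymphoma 2 rose, PAX5 and EBF1, and 0 fell, beside 4.3% and 4.32% of all genes. PAX5 (chr9:36833275-37034185, minus strand), the transcription factor that fixes B-cell identity and a direct SOX11 target, had 9409, 14293 and 8795 counts for wild type (batches 1, 2 and 3), 6667, 9609 and 6146 in the knockout, and 10830, 14921 and 11336 in the rescue. Batch 2 was the highest library in each genotype. PAX5 was 1.47-fold higher (0.52, SE 0.047, adjusted p = 0.00059) in every setting. EBF1, which acts with PAX5 early in the lineage, was 1.20-fold higher (adjusted p = 0.029). EBF1 lost the call when any 1 batch 2 library, the knockout batch 1 library or the wild-type or the knockout batch 3 library was left out (adjusted p 0.0537 to 0.155). Members of the plasma cell and cell cycle exit lists follow. PRDM1, which drives plasma cell fate and represses PAX5, was 1.27-fold lower (adjusted p = 0.025), and IRF4 was 1.18-fold higher (adjusted p = 0.018). S1PR1, the receptor that draws lymphocytes out of tissue, had 2136, 1122 and 2256 counts in batch 2 against 949 and 1309, 495 and 788, and 890 and 1465, and was 1.85-fold higher (adjusted p = 0.0085). NOTCH1, which is mutated in part of mantle cell lymphomas and was chosen after its values were seen, was 1.48-fold lower (adjusted p = 0.0030), at 2661, 2348 and 1729 counts in batch 2 against 3854 and 4659, 3151 and 3230, and 2384 and 2729. PRDM1 lost the call when any 1 batch 2 library or the knockout or the rescue batch 1 library was left out (adjusted p 0.0522 to 0.141). IRF4 did not pass when the knockout or the rescue batch 2 library was left out (0.0791 to 0.116). S1PR1 lost the call when the wild-type or the rescue batch 2 library was left out (adjusted p 0.0543 to 0.0641).

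Antigen presentation genes of MHC class II had 4 of 16 higher (HLA-DQB1, HLA-DQA1, HLA-DRB1 and IFI30) and 0 lower, beside 4.3% and 4.32% of all genes, with a median of 0.14. In all 3 genotypes 8 lay above both other libraries, beside 13.1% of all genes. HLA-DQB1 was 1.42-fold higher (adjusted p = 0.013), and reads of HLA genes can be divided wrongly between similar copies. The reductase IFI30, which opens disulphides of antigens in lysosomes, was 1.21-fold higher (adjusted p = 0.018). Their regulator CIITA (-0.08, adjusted p = 0.37) and the invariant chain CD74 (0.17, adjusted p = 0.071), looked up after those values were seen, did not pass, and CD74 passed without the wild-type batch 3 library (0.0441) and with batch as 3 levels (0.025). Without the wild-type or the knockout batch 2 library the list counted 0 calls, and without that of the rescue 2. With batch as 3 levels it counted 8. HLA-DQB1 and IFI30 lost their calls when the wild-type or the knockout batch 2 library was left out (adjusted p 0.0646 to 0.095 and 0.0605 to 0.115, in that order). HLA-DQA1 and HLA-DRB1 did not pass when any 1 batch 2 library or the knockout or the rescue batch 1 library was left out (0.0692 to 0.197 and 0.0525 to 0.173, in that order). MHC class I genes had 0 of 12 called, with 1 at an unadjusted p under 0.05 in limma.

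Interferon-induced genes moved both ways, with BST2 (tetherin) 1.38-fold lower (adjusted p = 0.0040) and STAT2 1.35-fold lower (adjusted p = 0.0083), and DTX3L 1.21-fold higher. SAMD9L was the third fall among 28 tested, with 2 rises, beside 4.32% lower and 4.3% higher over all genes. BST2 kept its call in every setting and STAT2 lost its own without the knockout batch 2 library (0.0545). DTX3L lost the call when any 1 batch 2 library, the knockout batch 1 library or the wild-type batch 3 library was left out (adjusted p 0.0513 to 0.167). SAMD9L did not pass when any 1 library but the knockout of batch 3 was left out (0.0539 to 0.248).

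Several of the largest differences lay outside these lists, apart from PTPN6. LRMP, a membrane protein of germinal centre B cells, was 1.74-fold higher (adjusted p = 0.0088), the lipid-transfer protein of lysosomes GM2A 1.66-fold (adjusted p = 0.0089), PPP1R10, a regulatory subunit of protein phosphatase 1, 2.02-fold (adjusted p = 0.0027), the Notch-pathway ubiquitin ligase DTX4 2.12-fold (adjusted p = 0.013), the Golgi GTPase RAB30 1.75-fold (adjusted p = 0.0027) and the methyl-CpG reader ZBTB38 1.61-fold (adjusted p = 0.0049). PTPN6 (SHP-1), a phosphatase that restrains B-cell receptor signals and a member of that list, was 1.76-fold higher (adjusted p = 0.032). The potassium channel KCNH2 was 1.74-fold lower (adjusted p = 0.0035), the nuclease ANKLE1 1.53-fold (adjusted p = 0.00059) and the deubiquitinase USP28 1.81-fold (adjusted p = 0.0012). PPP1R10, RAB30, ZBTB38, KCNH2, ANKLE1 and USP28 kept their calls in every setting. FKBPL had 271, 266 and 274 counts in batch 2, but 245 in the knockout library of batch 3 and 10 to 29 in the rest. BLOC1S5-TXNDC5, a read-through of 2 neighbouring genes, had 156, 415 and 284 against 0 to 176. Both are uncertain, since reads of overlapping transcripts are divided between genes. LRMP and GM2A lost their calls when the wild-type batch 2 library was left out (adjusted p 0.0757 and 0.0757, in that order). DTX4 and FKBPL did not pass when the wild-type or the rescue batch 2 library was left out (0.0671 to 0.111 and 0.0838 to 0.0941, in that order). PTPN6 lost the call when any 1 batch 2 library or the knockout or the rescue batch 1 library was left out (adjusted p 0.0638 to 0.214). BLOC1S5-TXNDC5 did not pass when the wild-type or the knockout batch 2 library was left out (0.0732 to 0.0773).

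The remaining lists gave 1 to 5 calls or 0, to be read beside 4.3% of all genes higher and 4.32% lower. Of 40 chromatin genes 3 rose and 2 fell, of 27 lysosome and autophagy genes 3 rose, with the autophagy receptor SQSTM1 at 1.39-fold (adjusted p = 0.0045), of 17 NF-kB targets 2 rose, and of 22 p53 targets 2 rose and 2 fell. Of 25 B cell receptor genes 3 rose and 1 fell, of 21 plasma cell genes 2 rose and 2 fell, of 18 genes linked to SOX11 2 rose and 1 fell, and of 18 cyclin D and cell cycle exit genes 2 rose and 2 fell. Fatty acid synthesis (16 tested), sterol efflux (7), NRF2 targets (23) and zinc genes (6) had 1 rise each, and glucocorticoid targets (8) had 1 fall, TXNIP. In limma the proteasome had 0 of 32 called (1 higher and 1 lower at an unadjusted p under 0.05), and nuclear-retained long RNAs 0 of 4 (0 at that level). With batch as 3 levels the counts were 5 rises and 2 falls for chromatin genes, 4 and 2 for plasma cell, B cell receptor and SOX11-linked genes, 3 rises for NRF2 targets, 2 rises for fatty acid synthesis and 2 falls for glucocorticoid targets. With the wild-type batch 2 library left out, the p53, NF-kB, B cell receptor, cyclin D, fatty acid and NRF2 lists counted 0 calls, and the chromatin, lysosome, plasma cell and SOX11-linked lists 1 rise each. Without the rescue batch 2 library the chromatin, p53, NF-kB, cyclin D, fatty acid, sterol efflux and NRF2 lists counted 0. Without the knockout batch 2 library the plasma cell, sterol efflux and NRF2 lists counted 0, and the chromatin, p53, NF-kB, B cell receptor, cyclin D and SOX11-linked lists 1 rise each.

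**Figure D5:**
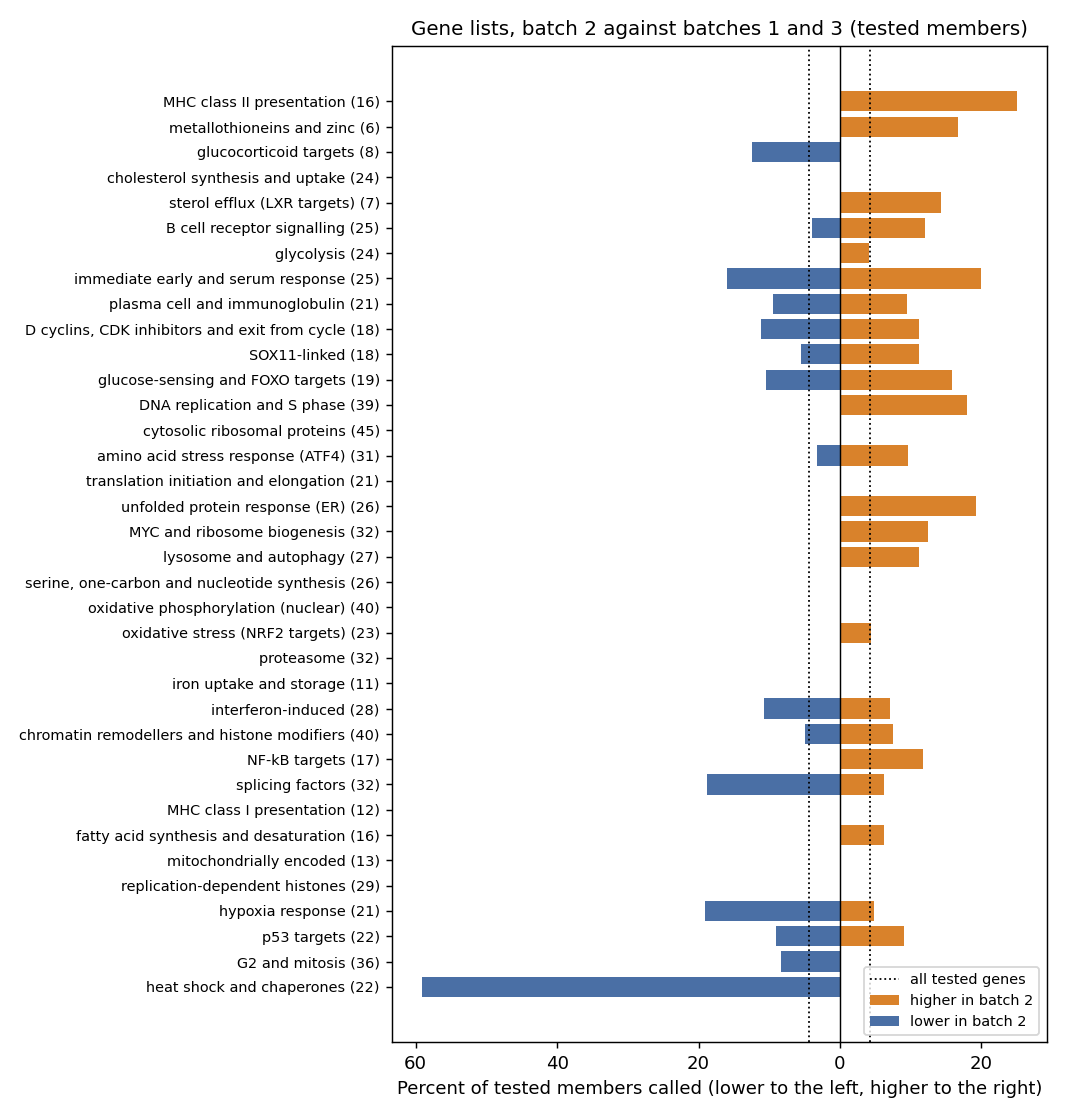
Share of tested members of each gene list called higher (right, orange) or lower (left, blue) in batch 2 against batches 1 and 3; the number tested is in parentheses and dotted lines mark the shares over all tested genes, 4.3% and 4.32%. The chaperone list reaches furthest, with 13 of 22 lower.

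Called genes were longer and more abundant than the rest. Across genes the rank correlation of the signed difference was 0.01 with transcript length and -0.01 with GC content, a description over 11486 genes that are not independent replicates. Median length was 4549 bases for genes higher, 3759.5 for genes lower and 3321 for genes not called, and median GC content was 46.8%, 48.9% and 48.5%. Median counts were 1836 for genes higher and 1496 for genes lower, against 1046 for genes not called.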

How the data were processed

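RNA-seq was measured in 9 libraries. The authors deposited 1 table of log2 expression, with 16586 genes. The submitters' notes name kallisto 0.46.1 and DESeq2 1.24.0, FastQC 0.11.9 and Trimmomatic 0.40, R 4.3.2, and the build GRCh38.p13. The table's name says log CPM, but all libraries share the lowest value, 8.598, which marks a variance-stabilized log2 scale. Undoing the transform, whose constant of 388 is 2 raised to that value, returned normalized counts, and from these CPM. Depth was estimated from the step between low counts, and so is approximate.

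A CPM of 1 or more in at least 3 libraries left 11542 genes for testing and removed 5044. The model (limma 3.58.1, R 4.3.3) took the deposited values of all 9 libraries, with terms for genotype and an indicator of batch 2 (trended prior variance, Benjamini-Hochberg adjustment, threshold 0.05). Tests had been planned on log2 CPM or another log2 scale, and ran on the scale the file holds. Since low genes are compressed on it, folds come from counts. On simulated data with 200 genes changed, 12% of 1.15-fold, 50% of 1.25-fold, 82% of 1.5-fold and 94% of 2-fold changes were recovered, and 8.462% of 130 calls were false.

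Replicate numbers equal the labelled batch and pair the libraries: deviations from genotype means correlated at 0.187 to 0.510 between same-numbered libraries, and 9 of 9 correlated best with their own number. Named genes were SOX11, the 14 largest rises and falls among called genes outside both other libraries in all 3 genotypes, up to 4 per list, 6 for the interaction and up to 4 each way for batch 1 against batch 3. The batch, the 38 pathway and 6 marker lists and further named genes were chosen with earlier results of these data known. Gene positions come from GENCODE release 29, which matched 16461 identifiers, and promoters from RefSeq, which held 9116 of the tested genes. Alternatives were other scalings, filters, prior variances, the replicate block, and leaving out libraries, batches or genotypes. Some results are not reported here.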

Additional observations from a re-analysis of the deposited data

How the results depend on the processing

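The count of genes that differed between batch 2 and the other batches was 995. It was 1191 with batch as 3 levels (the replicate block), which kept 987 of those genes, and 813 to 1060 under other filters, scalings and prior variances. Leaving out 1 library gave 195 to 871, without batch 1 it was 207, without batch 3 it was 573, and without the wild-type, knockout or rescue group it was 273, 264 and 265. Of the 141 named and called genes, 0 reversed in the 22 alternatives and 33 passed in all of those in which they were tested. Batch 1 against batch 3 gave 2 genes, 0 at a CPM of at least 4 or on log2(CPM + 1), 1 after quantile normalization or with a constant prior variance, 0 to 28 without 1 library, and 0, 30 and 6 without the wild-type, knockout and rescue groups. Batch 2 against batch 1 gave 191 to 887 without 1 library and 276, 469 and 180 without those groups. Batch 2 against batch 3 gave 83 to 494 and 51, 174 and 23. The interaction gave 0 to 2 genes without 1 library of batch 1 or 3, the 2 being without wild-type batch 1, and could not be fitted without a batch 2 library. Smaller sets leave fewer residual degrees of freedom. The replicate block ended no call of a named gene. In the simulation 12% of 1.15-fold changes were recovered, so changes of that size can be missed. Its spread was taken around genotype means and so held the batch difference as noise. It also changed 200 genes, whereas 995 were called here. Its recovered and false shares therefore need not carry over to these data, where PCNA was called at 1.10-fold.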

Other observations

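Genes of the Wnt pathway, grouped after their values were seen, were picked for being lower in batch 2. Of 27 tested, 8 fell (WNT10A, WNT10B, NOTUM, KREMEN2, LEF1, LRP5, DVL1 and TLE1) and 2 rose (RNF43 and ZNRF3), beside 4.32% and 4.3% of all genes, with a median difference of -0.08, beside 0.00 over all genes. WNT10B, a secreted ligand, had 1173, 1645 and 890 counts in the wild-type, knockout and rescue libraries of batch 2. The other libraries held 1932 and 1725, 2629 and 2499, and 1391 and 1303. It was 1.54-fold lower (-0.44, SE 0.043, adjusted p = 0.000935). WNT10A was 1.65-fold lower (adjusted p = 0.0016), KREMEN2, a receptor of the Wnt inhibitor DKK1, 1.36-fold (adjusted p = 0.0026) and NOTUM, an enzyme that inactivates Wnt ligands, 1.40-fold (adjusted p = 0.0063). RNF43 and ZNRF3, ligases that remove Wnt receptors from the surface, were 1.33-fold and 1.29-fold higher, and the target AXIN2 did not pass (0.10, adjusted p = 0.21). Without the wild-type batch 2 library the list counted 4 falls and 0 rises, and NOTUM did not pass (0.0516). RNF43 lost its call when any 1 batch 2 library was left out (0.0608 to 0.118). LRP5 and ZNRF3 did so too and also without the knockout batch 1 library (0.0531 to 0.137 and 0.053 to 0.147), ZNRF3 further without rescue batch 3. LEF1 lost its own when any 1 of 6 libraries was left out (all of batch 2, knockout and rescue of batch 1, wild type of batch 3; 0.0589 to 0.188). DVL1 lost it without the wild-type or the rescue batch 2 library (0.0505 to 0.0513) and TLE1 without the knockout or the rescue batch 2 library (0.0703 to 0.0789). Over all settings the falls numbered 4 to 9 and the rises 0 to 3.

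Zinc finger genes whose symbols begin with ZNF, also grouped after their values were seen, were picked for being higher. Of 447 tested, 46 (10.3%) rose and 8 (1.79%) fell, beside 4.3% and 4.32% of all genes. In all 3 genotypes 113 lay above both other libraries and 24 below, beside 13.1% of all genes each way. Their median difference was 0.05 on the deposited scale and 0.08 on log2(CPM + 1). Many of these genes are similar in sequence, so reads can be divided wrongly between them. Without the wild-type batch 2 library 13 rose and 0 fell, and over all settings the rises numbered 4 to 58 and the falls 0 to 10.

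POU2F1 (OCT1), a partner of the B-cell coactivator OBF-1 chosen after its values were seen, had 3728, 3852 and 3895 counts in batch 2 and 2267 to 2504 in the others. It was 1.59-fold higher (0.54, SE 0.039, adjusted p = 0.00021) and passed in every setting. The calcium pump ATP2B1 was 1.41-fold higher (adjusted p = 0.0023) and passed in every setting too. The NFAT factors, which calcium activates, differed in direction: NFATC1 was 1.79-fold higher (adjusted p = 0.016) and NFATC2 1.21-fold lower (adjusted p = 0.0099). NFATC1 did not pass without the wild-type batch 2 library (0.0869), nor NFATC2 without that of the wild type (0.0641) or the knockout (0.0648).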
